A study of Mus musculus with 6 samples.

Results

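The microtubule motors of the newborn hippocampus were examined in *Mov10* Deletion and WT pups, namely the kinesins with their light chains, cytoplasmic dynein and dynactin. Members were the protein-coding genes of the GENCODE mouse annotation whose symbol is Kif followed by a digit, Klc1 to Klc4, Dync1 or Dync2, Dynll, Dynlrb or Dynlt, or Dctn1 to Dctn6. The rule gave 74 genes of 52230 in the files, and no measured value entered it. Of the 74 genes 73 had at least 1 estimated count and 67 reached 0.25 CPM (counts scaled to library size) in 3 or more libraries and were tested. The 7 genes that were not tested were *Dynlt2a1*, *Dynlt2a3*, *Kif12*, *Kif19b*, *Kif28*, *Kif4-ps* and *Kif2b*, the last of which had no count in any library.

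The study compared whole hippocampi at postnatal day 0, with 3 *Mov10* Deletion and 3 WT libraries, each a pool of hippocampi from more than 1 pup. In *Mov10* Deletion pups a floxed *Mov10* allele was recombined by Cre driven from *Emx1*, which acts in the excitatory lineage of the forebrain, and the pups also came from a cross with a line heterozygous for a germline mutant *Mov10* allele. Interneurons, glia from other lineages, vessels and blood cells of the hippocampus do not carry *Emx1*-driven recombination. WT pups were C57BL/6 mice without either allele, so Cre and the loss of *Mov10* cannot be told apart in this design. MOV10 is an RNA helicase that binds mRNAs, and the study asked which mRNAs change without it.

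Kinesins and cytoplasmic dynein are motors that walk along microtubules using ATP. Most kinesins walk towards the plus ends, which in an axon point away from the cell body, while cytoplasmic dynein walks towards the minus ends and needs the dynactin complex to carry cargo over long distances. A separate set of kinesins builds and takes apart the mitotic spindle, so it is used by dividing progenitors and made little in postmitotic neurons, and further kinesins and dynein-2 serve cilia. Around birth the hippocampus holds neurons that extend axons and dendrites next to progenitors of the dentate gyrus that still divide.

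The libraries held 71400300 to 86207971 estimated counts. Pearson correlations of log2 CPM were 0.991 to 0.996 within groups and 0.987 to 0.991 across them. *Mov10* had 2.45, 2.13 and 2.09 CPM in *Mov10* Deletion libraries, against 4.81, 4.75 and 4.80 CPM in WT libraries (log2 fold change -1.11, SE 0.10). The hippocampal markers *Prox1*, *Zbtb20*, *Lhx2*, *Neurod2*, *Neurod6* and *Emx1* were present in every library. In the limma fit described next, *Lhx2* was lower (-0.28, adjusted p = 0.00261) and *Zbtb20* higher (0.29, adjusted p = 0.0234) in *Mov10* Deletion libraries, and the others did not pass. Across all genes 3992 of 16745, or 23.8%, passed the test at an adjusted p under 0.05 (limma-trend with 2 factors of unwanted variation, Benjamini-Hochberg over all tested genes), with a median 1.2-fold change among them. *Xist* had 0.184, 888 and 1.57 CPM in *Mov10* Deletion libraries, against 182, 251 and 643 CPM in WT libraries. The mix of sexes in the pools thus differed within groups and was not balanced between them. Of the 74 genes *Kif4* and *Dynlt3* are X-linked and none is Y-linked.

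The mitotic kinesins were lower in *Mov10* Deletion hippocampi, while the kinesins that carry cargo changed little. Of the 67 tested genes 9 rose and 14 fell, or 34.3% against 23.8% of all tested genes. Of these genes 13.4% rose and 20.9% fell, against 12.2% and 11.7% of all tested genes. Of the 14 that fell 10 were mitotic kinesins. Their median log2 fold change over all 67 was -0.01, beside 0.01 over all 16745 genes. Without the factors 19 of the 67 passed, where 21% of all genes did. All 19 were among the 23, while 19.7% of all tested genes passed in both fits. In 14 genes every *Mov10* Deletion library lay above every WT library and in 18 below, beside 20.4% and 21.2% of all tested genes, or 41.6% in either direction. These counts by class, with the value of every tested gene, are drawn in the plot of log2 fold changes.

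**Figure D1:**
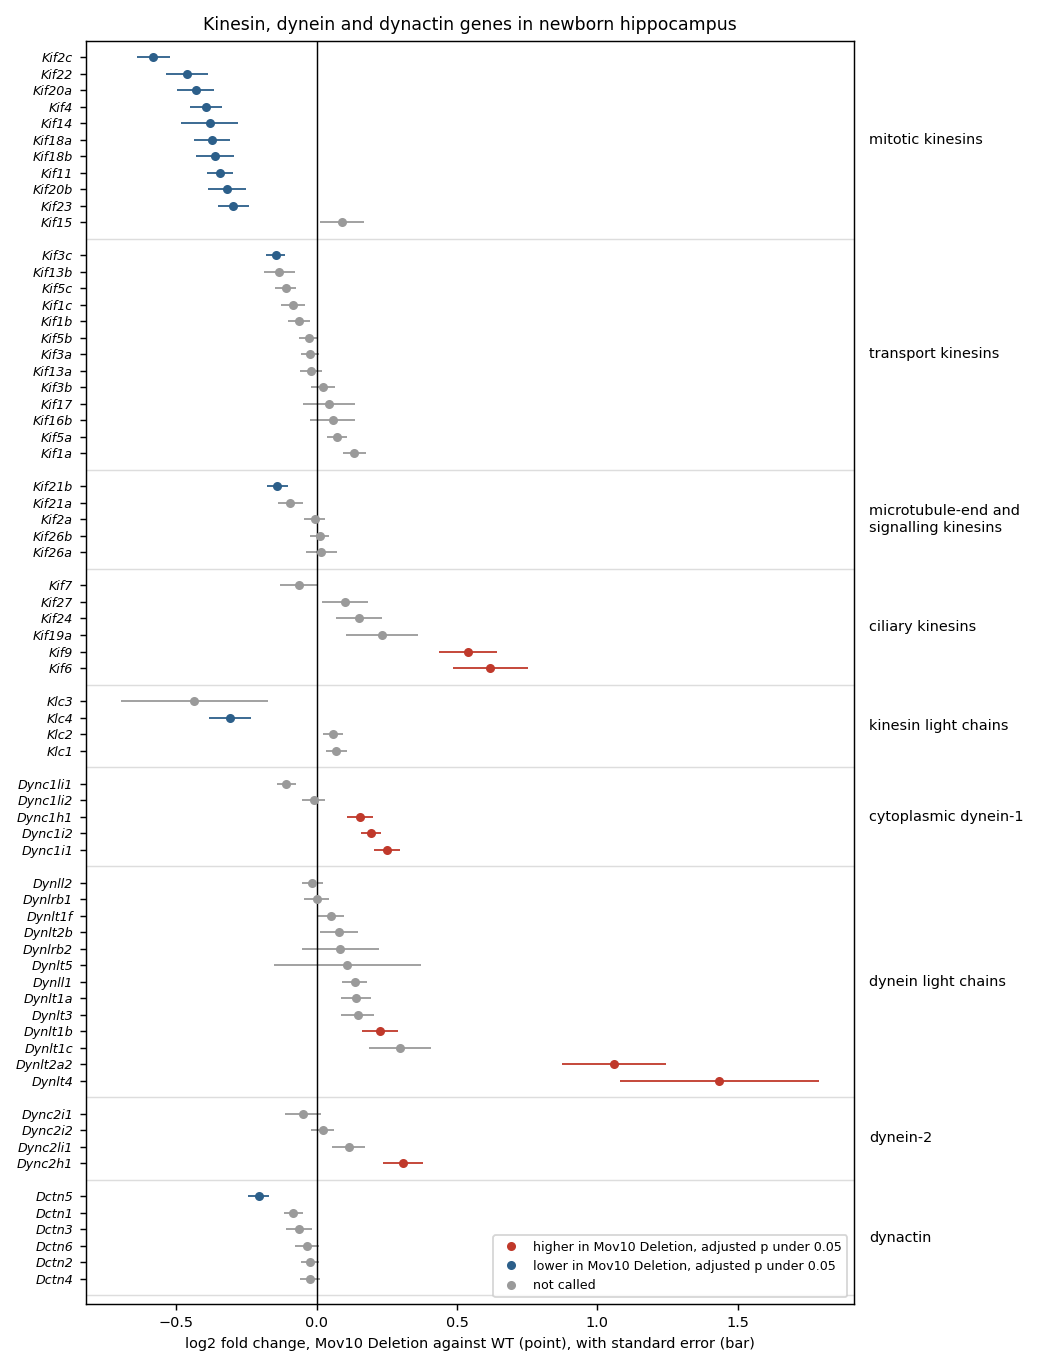
Log2 fold change of each of the 67 tested genes, *Mov10* Deletion against WT (horizontal axis, points), with its standard error (bars), grouped by the role of the protein. All 10 mitotic kinesins that fell lie further left than *Kif3c* at -0.15, the lowest transport kinesin, and *Kif6*, *Kif9*, *Dynlt2a2* and *Dynlt4* lie furthest right.

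Among the mitotic kinesins 10 of the 11 tested genes fell and none rose, with a median log2 fold change of -0.37. Lower calls made up 11.7% of all tested genes. The 10 genes stood at 67.4% to 81.7% of their WT mean, and in all 10 every *Mov10* Deletion library lay below every WT library, which 21.2% of all tested genes did. On log2(TPM + 0.1), which corrects for the length of the transcripts in use, 6 of the 11 passed, all lower. In a bulk sample fewer cells that express a gene and less of its RNA per cell cannot be told apart.

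Among the kinesins that move chromosomes and build the spindle, 5 of the tested genes fell. *Kif2c*, a kinesin that shortens microtubules at centromeres, had 11.3, 8.83 and 9.19 CPM in *Mov10* Deletion libraries, against 14.2, 14.7 and 14.5 CPM in WT libraries. Its log2 fold change of -0.58 (SE 0.060, adjusted p = 0.00177) was the lowest of the 67 genes. *Kif22*, a chromokinesin that pushes chromosome arms outwards, had 15.0, 12.5 and 11.3 CPM in *Mov10* Deletion libraries, against 17.3, 17.8 and 18.4 CPM in WT libraries (-0.46, SE 0.075, adjusted p = 0.00636). *Kif18a*, which limits the swings of chromosomes at the spindle centre, had 10.8, 8.89 and 9.84 CPM in *Mov10* Deletion libraries, against 12.7, 12.7 and 12.6 CPM in WT libraries (-0.37, SE 0.064, adjusted p = 0.00767). The groups were apart in each of these 3 genes, and the *Mov10* Deletion libraries spread more than the WT libraries did.

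*Kif11*, which slides antiparallel microtubules to keep the spindle bipolar, was the most abundant mitotic kinesin per length, at 17.98 ± 1.06 TPM in *Mov10* Deletion libraries and 23.2 ± 0.193 TPM in WT libraries. It had 39.4, 35.9 and 34.5 CPM in *Mov10* Deletion libraries, against 45.5, 46.6 and 48.1 CPM in WT libraries (-0.35, SE 0.045, adjusted p = 0.0032). *Kif18b*, which trims astral microtubules, had 10.3, 9.94 and 9.19 CPM in *Mov10* Deletion libraries, against 12.4, 12.5 and 13.3 CPM in WT libraries (-0.36, SE 0.069, adjusted p = 0.0106). In both genes the highest *Mov10* Deletion library stayed under the lowest WT library, and *Kif18b* did not pass on log2(TPM + 0.1) (adjusted p = 0.0715).

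The kinesins of the central spindle and of cytokinesis fell as well. *Kif4*, an X-linked chromokinesin that works with the bundling protein PRC1, had 14.7, 13.3 and 13.045 CPM in *Mov10* Deletion libraries, against 18.04, 17.7 and 17.9 CPM in WT libraries (-0.40, SE 0.056, adjusted p = 0.00415). *Kif20a*, which carries Aurora B to the central spindle, had 17.1, 14.4 and 13.6 CPM in *Mov10* Deletion libraries, against 20.2, 19.4 and 20.9 CPM in WT libraries (-0.43, SE 0.067, adjusted p = 0.00551). *Kif23*, which forms the centralspindlin complex with RACGAP1, had 14.9, 14.6 and 14.5 CPM in *Mov10* Deletion libraries, against 17.4, 18.1 and 21.0 CPM in WT libraries (-0.30, SE 0.055, adjusted p = 0.00963). The *Mov10* Deletion libraries of *Kif23* lay close together and WT library 3 was the highest. *Kif23* did not pass with a sex score in place of the factors (adjusted p = 0.0674) or on log2(TPM + 0.1) (adjusted p = 0.0524).

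*Kif14*, which works with citron kinase in cytokinesis, had 6.83, 5.49 and 7.14 CPM in *Mov10* Deletion libraries, against 8.02, 8.80 and 8.83 CPM in WT libraries (-0.38, SE 0.10, adjusted p = 0.0332), and of 18 other settings it failed to pass in the fit without WT replicate 2 (adjusted p = 0.0657) and on log2(TPM + 0.1) (adjusted p = 0.212). *Kif20b*, which acts in the final cut between daughter cells and is needed for normal cortical size in mice, had 11.8, 8.56 and 9.54 CPM in *Mov10* Deletion libraries, against 12.4, 11.9 and 12.3 CPM in WT libraries (-0.32, SE 0.067, adjusted p = 0.0147). *Mov10* Deletion library 1 lay just below the lowest WT library. The adjusted p was 0.0696 without the factors, and the difference was -0.05 on log2(TPM + 0.1), with an adjusted p of 0.729. A short *Kif20b* transcript of 573 bases, *Kif20b-208*, took 2.10%, 3.87% and 1.47% of the gene in *Mov10* Deletion libraries, against 0.314%, 0.636% and 2.83% in WT libraries. The groups overlapped in this share, and the usage of *Kif20b* transcripts did not pass (adjusted p = 0.13, limma diffSplice). Its part in the TPM result was not tested.

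*Kif15* was the exception. It encodes a kinesin that crosslinks spindle microtubules beside *Kif11* and is also found in growing axons. It had 15.1, 12.6 and 13.7 CPM in *Mov10* Deletion libraries, against 11.9, 14.3 and 12.6 CPM in WT libraries, and the groups overlapped (0.09, SE 0.079, adjusted p = 0.432).

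**Figure D2:**
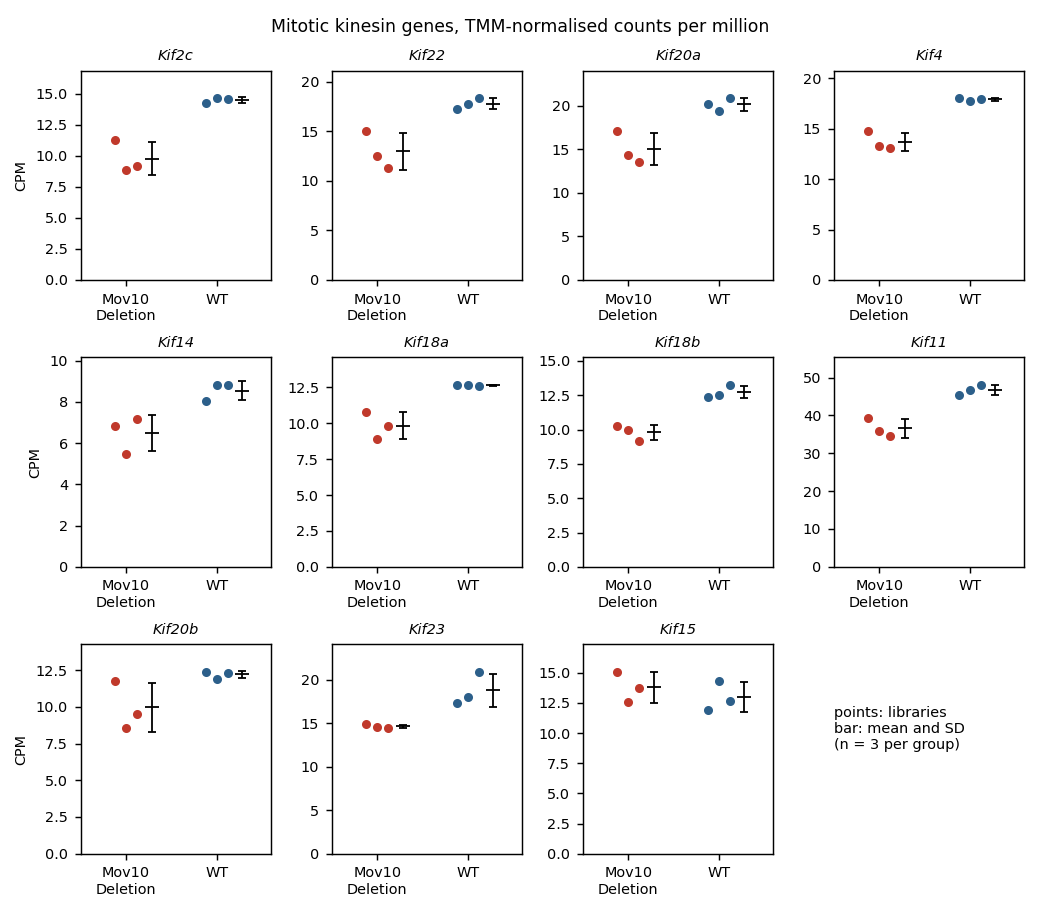
CPM (vertical axes, each from 0) of the 11 tested mitotic kinesins in the 3 *Mov10* Deletion and 3 WT libraries (points), with mean and SD (bars), in order of log2 fold change. The groups are apart in all panels but the last, *Kif15*, where *Mov10* Deletion libraries sit between 12.6 and 15.1 CPM and WT libraries between 11.9 and 14.3 CPM.

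Markers of G2 and mitosis moved with these kinesins. Of 20 G2/M genes that are not kinesins 19 fell and none rose, all but *Birc5* (-0.23, adjusted p = 0.0856), with a median of -0.42. Their summed level was 652, 591 and 580.0 CPM in *Mov10* Deletion libraries, against 754, 786 and 811 CPM in WT libraries. The summed level of the mitotic kinesins was 167, 145 and 146 CPM in *Mov10* Deletion libraries, against 190.0, 194 and 200.4 CPM in WT libraries. As a percentage of the G2/M sum, which holds no kinesins, the kinesin sum was 25.1% ± 0.568 in *Mov10* Deletion libraries and 24.9% ± 0.276 in WT libraries (SD, n = 3 each). This ratio overlapped between the groups while both sums did not. *Mov10* Deletion library 1 was the highest of its group in both sums and in 10 of the 11 kinesins. Without it all 10 calls were still made.

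Of 17 S phase genes 10 rose and 2 (*Mcm7* and *Slbp*) fell, with a median of 0.23, and their summed level was 558, 515 and 507 CPM in *Mov10* Deletion libraries, against 496, 501 and 480.3 CPM in WT libraries. As a percentage of that sum the mitotic kinesins stood at 28.9% ± 0.922 in *Mov10* Deletion libraries and 39.6% ± 1.83 in WT libraries (SD, n = 3 each). Of 8 neural progenitor markers 2 rose (*Hes5* and *Fabp7*) and 2 fell (*Pax6* and *Vim*), and their sums were 1081 to 1177 CPM in *Mov10* Deletion libraries and 1007 to 1066 CPM in WT libraries. Of the erythroid markers 3 of 6 tested genes (*Slc4a1*, *Hba-a1* and *Hbb-bt*) fell and none rose, and the 8 listed genes summed to 213 to 295 CPM in *Mov10* Deletion libraries and 247 to 309 CPM in WT libraries. Without the factors *Slbp*, *Pax6*, *Vim*, *Slc4a1* and *Hba-a1* did not pass (adjusted p 0.0519 to 0.186, limma). The part of these cell types in the kinesin result was not tested.

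**Figure D3:**
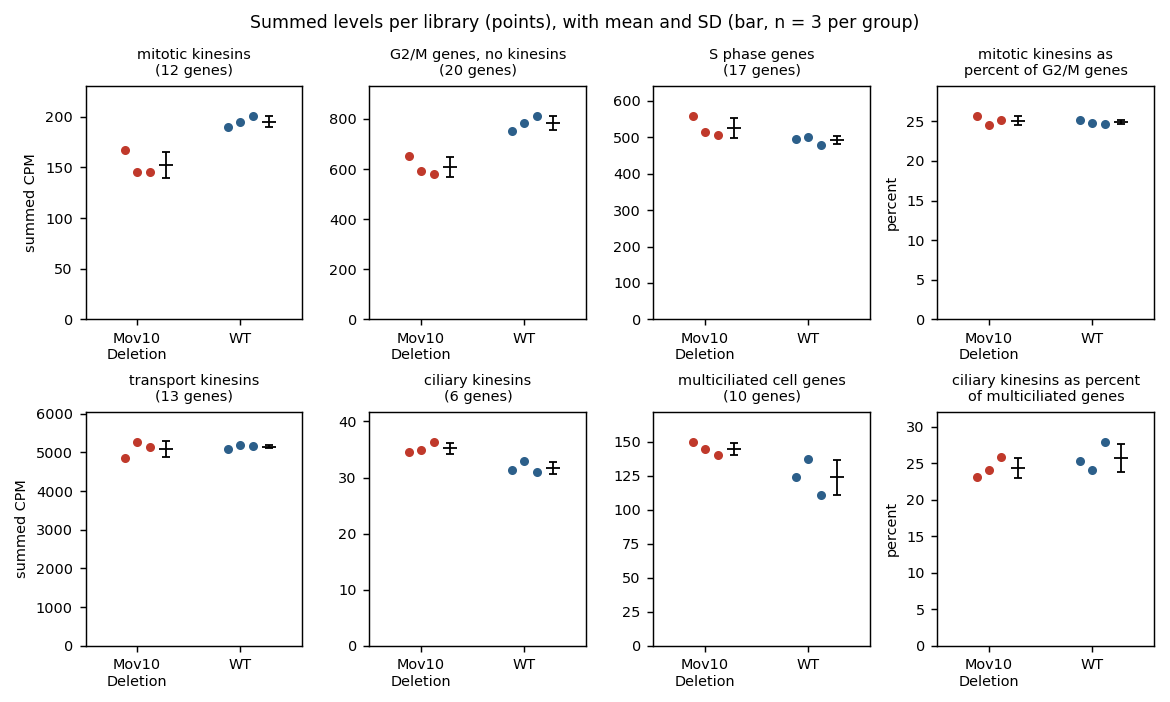
Summed CPM per library (points, vertical axes from 0) of kinesin classes and of marker genes of the same processes, with mean and SD (bars), and the kinesin sum as a percentage of the marker sum (right). The mitotic kinesins and the G2/M genes are both lower in all 3 *Mov10* Deletion libraries, and their ratio is 24.5% to 25.6% in *Mov10* Deletion libraries and 24.7% to 25.2% in WT libraries.

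The promoters of the mitotic kinesins are shown because these genes moved together. Genes of G2 and mitosis are known for a promoter element near the start of transcription, the cell cycle genes homology region, which is bound by the MuvB complex and often lies next to CCAAT boxes bound by NF-Y. RefSeq promoter windows (mouse build GRCm38.p6, 250 bases before to 50 after the start) were found for 49 of the 74 genes. The element was searched as TTTGAA or TTCGAA on both strands. These letters were present in 9 of 11 mitotic kinesin windows, or 81.8%, in 1 of 12 windows of 10 transport kinesins (*Kif1a*), or 8.3%, in 19.2% of all 32851 windows and in 13.9% of the 15421 windows of tested genes. Within 50 bases of the start they were present in 7 mitotic kinesin windows, or 63.6%, against 5.3% of all windows and 3.6% of those of tested genes. TTCGAA reads alike on both strands. The following stretches show them in capitals, in the direction of the gene, for the matches within 50 bases of the start, where TTCAAA is TTTGAA read on the other strand. In *Kif20b* the capitals mark the first of 2 adjoining matches, and the second, 14 bases after the start, is in lower case.
*Kif11*, chr19:37376351-37376380, plus strand: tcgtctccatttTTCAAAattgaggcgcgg
*Kif22*, chr7:127042420-127042449, minus strand: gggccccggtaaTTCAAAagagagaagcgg
*Kif23*, chr9:61946780-61946809, minus strand: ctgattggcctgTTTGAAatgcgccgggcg
*Kif18b*, chr11:102925104-102925133, minus strand: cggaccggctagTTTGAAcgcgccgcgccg
*Kif4*, chrX:100626072-100626101, plus strand: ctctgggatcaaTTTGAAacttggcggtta
*Kif20b*, chr19:34922353-34922382, plus strand: gagccgccattgTTTGAAtttgaaaaccgg
*Kif15*, chr9:122951050-122951079, plus strand: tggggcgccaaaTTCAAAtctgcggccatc

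In the first 6 of these genes the RNA fell, and in *Kif15*, whose stretch has the same 6 letters 19 bases before the start, it did not pass the test. *Kif2c* held the letters further out, 103 bases before the start, and *Kif14* 228 bases before it. *Kif18a*, which fell, and *Kif2b*, which had no counts, had none in this window, and *Kif20a* was not matched. CCAAT on either strand was present in 7 of 11 mitotic kinesin windows, or 63.6%, in 33.3% of transport kinesin windows and in 37.4% of all windows. E2F-type letters (TTGGCGC or TTCGCGC, either strand) were found in *Kif15* and *Kif18a* alone of the mitotic kinesins. They were found in 3.9% of all windows and in 6.4% of those of tested genes. These E2F-type letters may share bases with a CCAAT box, but did not do so in either gene. A match of letters is not a measured binding site.

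**Figure D4:**
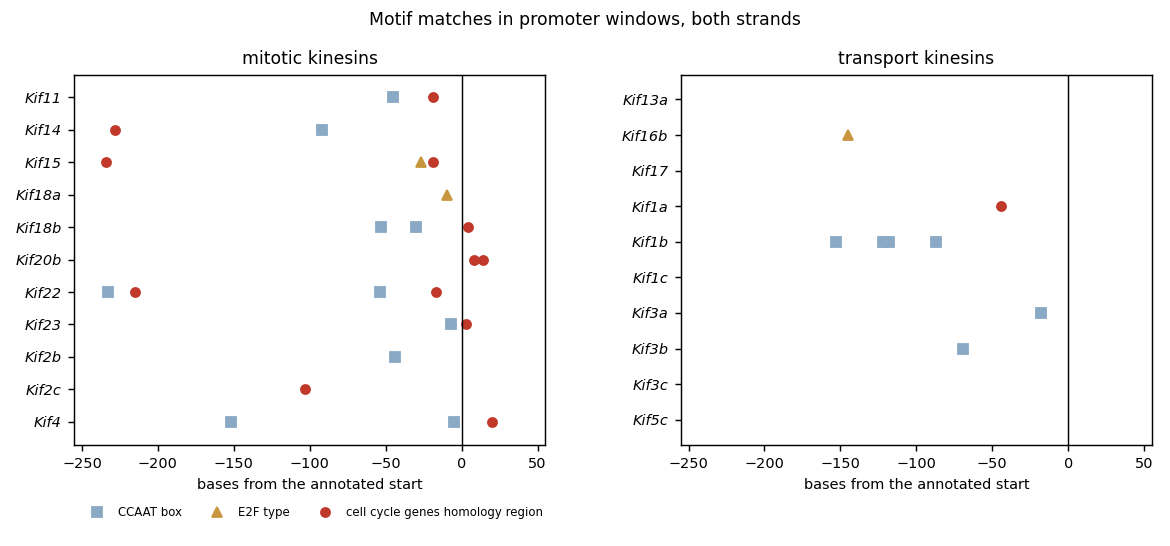
Positions of the leftmost base of motif matches (markers) relative to the annotated start (vertical line, horizontal axis in bases) in promoter windows of 11 mitotic and 10 transport kinesins. Matches to the cell cycle genes homology region stand at 19 and 17 bases before the start in *Kif11* and *Kif22* and at 3 to 20 bases after it in *Kif23*, *Kif18b*, *Kif20b* and *Kif4*. *Kif15*, whose RNA did not pass the test, also has one 19 bases before the start. In *Kif2c* and *Kif14* they lie further out, 103 and 228 bases before the start, and of the transport kinesins only *Kif1a* has one.

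The transport kinesins were present at higher summed levels per length and changed little. Of 13 tested genes 1 fell and none rose, or 7.69% against 23.8% of all tested genes, with a median log2 fold change of -0.02. Their log2 fold changes ran from -0.15 to 0.13. With a library left out the count that passed was 5 without *Mov10* Deletion replicate 1 or 3, 4 without *Mov10* Deletion replicate 2 or WT replicate 3, 2 without WT replicate 1 and 0 without WT replicate 2. The number of all genes called also shifted between these fits, with its range given further below. The comparison with 23.8% of all tested genes therefore holds for the main fit alone. Summed over the class, levels were 5082 ± 207 CPM in *Mov10* Deletion libraries and 5152 ± 48.4 CPM in WT libraries (SD, n = 3 each). Per length, the transport kinesins summed to 1442 ± 43.9 TPM (scaled by transcript length and library) in *Mov10* Deletion libraries and 1474 ± 24.4 TPM in WT libraries, while the mitotic kinesins summed to 98.8 ± 7.06 TPM in *Mov10* Deletion libraries and 125 ± 2.83 TPM in WT libraries. The mitotic share of all kinesin motor TPM was 5.77%, 4.84% and 5.09% in *Mov10* Deletion libraries, against 6.20%, 6.28% and 6.62% in WT libraries, with no overlap.

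*Kif3c*, a neuronal kinesin-2 subunit, was the transport kinesin that fell. It had 324, 341 and 331 CPM in *Mov10* Deletion libraries, against 364, 365 and 394 CPM in WT libraries (-0.15, SE 0.035, adjusted p = 0.0227), with the groups apart. The call was lost with a sex score in place of the factors and without WT replicate 2, with adjusted p of 0.138 and 0.11 from limma. Its partner *Kif3a* had 183, 198 and 192 CPM in *Mov10* Deletion libraries, against 197, 191 and 190.3 CPM in WT libraries (-0.02, SE 0.033, adjusted p = 0.634). *Kif3b* likewise overlapped between the groups (0.02, adjusted p = 0.731). *Kifap3*, which links kinesin-2 motors to cargo, rose (0.19, adjusted p = 0.0261).

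The conventional kinesin heavy chains *Kif5a*, *Kif5b* and *Kif5c*, which carry mitochondria, vesicles and RNA granules, gave values in both directions, none past the test. *Kif5c* had 1059, 1164 and 1115 CPM in *Mov10* Deletion libraries, against 1188, 1206 and 1267 CPM in WT libraries (-0.11, SE 0.038, adjusted p = 0.0716). Its groups did not overlap, and it passed in 7 of 18 other settings. *Kif5a* had 545, 605 and 583 CPM in *Mov10* Deletion libraries, against 554, 551 and 532 CPM in WT libraries (0.07, adjusted p = 0.165). *Kif5b* had 237, 236 and 228 CPM in *Mov10* Deletion libraries, against 238, 237 and 240.2 CPM in WT libraries (-0.03, adjusted p = 0.577).

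*Kif1a*, which carries precursors of synaptic vesicles, stood just outside the threshold. It had 1167, 1271 and 1258 CPM in *Mov10* Deletion libraries, against 1118, 1149 and 1087 CPM in WT libraries (0.13, SE 0.041, adjusted p = 0.0501), with every *Mov10* Deletion library above every WT library, and it passed in 8 of 18 other settings. The other transport kinesins, *Kif1b*, *Kif1c*, *Kif13a*, *Kif13b*, *Kif16b* and *Kif17*, ran from -0.13 to 0.06 with overlapping groups. Of 9 markers of postmitotic neurons 2 rose and none fell, with a median of 0.08 and sums of 6555 to 7105 CPM in *Mov10* Deletion libraries and 6567 to 6644 CPM in WT libraries.

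Of the 5 kinesins that act at microtubule ends or in signalling 1 fell, beside 11.7% of all tested genes. *Kif21b*, a neuronal kinesin that pauses microtubule growth, had 703, 792 and 754 CPM in *Mov10* Deletion libraries, against 813, 829.9 and 894 CPM in WT libraries (-0.14, SE 0.037, adjusted p = 0.0308). The groups did not overlap, but the adjusted p was 0.0611 without the factors and it passed in 12 of 18 other settings, with an adjusted p of 0.205 without WT replicate 2. *Kif2a*, *Kif21a*, *Kif26a* and *Kif26b* ran from -0.09 to 0.02.

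Among kinesin light chains, which couple conventional kinesin to cargo, *Klc4* fell, or 1 of 4 genes beside 11.7% of all tested genes. It had 18.03, 18.3 and 21.2 CPM in *Mov10* Deletion libraries, against 24.95, 22.6 and 22.8 CPM in WT libraries (-0.31, SE 0.075, adjusted p = 0.024), with no overlap, and it did not pass with the sex score (adjusted p = 0.0677). *Klc1* (0.07, adjusted p = 0.21) and *Klc2* (0.06, adjusted p = 0.267) did not pass. *Klc3* stayed under 1 CPM in every library.

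The ciliary kinesins had 2 of 6 genes higher and none lower, beside 12.2% of all tested genes higher, with a median of 0.19. *Kif6*, needed for cilia of ependymal cells in mice, had 2.73, 3.23 and 3.26 CPM in *Mov10* Deletion libraries, against 1.88, 2.25 and 1.83 CPM in WT libraries (0.62, SE 0.13, adjusted p = 0.0164). *Kif9*, a kinesin of the axoneme of motile cilia, had 4.60, 4.33 and 4.36 CPM in *Mov10* Deletion libraries, against 3.07, 3.18 and 2.51 CPM in WT libraries (0.54, SE 0.10, adjusted p = 0.0107). The groups were apart in both genes, at counts of 141 to 376 per library. On log2(TPM + 0.1) neither passed (adjusted p = 0.108 for *Kif6* and 0.0527 for *Kif9*), and *Kif9* did not pass with the sex score (adjusted p = 0.0538). *Kif7*, which acts in Hedgehog signalling at the primary cilium, overlapped between groups (-0.06, adjusted p = 0.535). *Kif19a*, *Kif24* and *Kif27* ran from 0.10 to 0.23 without passing.

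Genes of multiciliated ependymal cells moved with them. Of 9 tested genes 5 rose (*Dnah5*, *Dnah9*, *Dnah11*, *Ccdc39* and *Hydin*) and 1 fell (*Ccdc40*), with a median of 0.51. *Foxj1*, the regulator that defines these cells, did not pass (-0.15, adjusted p = 0.235). The 10 listed genes summed to 149.5, 145 and 140.4 CPM in *Mov10* Deletion libraries, against 124, 137 and 111 CPM in WT libraries, with no gene of the list at 0 in any library. The ciliary kinesins summed to 24.3% ± 1.39 of that sum in *Mov10* Deletion libraries and 25.7% ± 1.93 in WT libraries, which overlapped. *Kif7*, which did not pass, averaged 12.7 of the 35.2 CPM of the ciliary kinesins in *Mov10* Deletion libraries and 13.6 of 31.8 CPM in WT libraries. The ratio therefore says little about *Kif6* and *Kif9*. The part of these cells in the result was not tested.

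Of the 5 dynein-1 genes 3 rose and none fell, beside 12.2% of all tested genes higher. The 3 were the heavy chain and both intermediate chains, which help to join the motor to dynactin and cargo. *Dync1i1*, the intermediate chain typical of neurons, had 83.3, 86.1 and 81.2 CPM in *Mov10* Deletion libraries, against 68.4, 73.1 and 69.2 CPM in WT libraries (0.25, SE 0.046, adjusted p = 0.00943). *Dync1i2*, the widely expressed intermediate chain, had 271, 287 and 270.2 CPM in *Mov10* Deletion libraries, against 239.9, 243 and 244 CPM in WT libraries (0.19, SE 0.037, adjusted p = 0.0111). Groups were apart in both. *Dync1i1* passed in all 18 other settings and *Dync1i2* in 17, the exception being the fit without WT replicate 2 (adjusted p = 0.053).

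*Dync1h1*, the heavy chain that holds the motor domain, had 1048, 1195 and 1221 CPM in *Mov10* Deletion libraries, against 971, 1102 and 1187 CPM in WT libraries. Its log2 fold change of 0.15 (SE 0.046) had an adjusted p of 0.0455, yet the groups overlapped, the adjusted p was 0.464 without the factors, and it passed in only 7 of 18 other settings, with a log2 fold change of 0.03 without WT replicate 1 (adjusted p = 0.704) and an adjusted p of 0.145 without WT replicate 2. *Dync1li1*, a light intermediate chain, had 126, 129.8 and 126 CPM in *Mov10* Deletion libraries, against 138, 136 and 137 CPM in WT libraries (-0.11, SE 0.035, adjusted p = 0.0559), with the groups apart. *Dync1li2* overlapped between them (-0.01, adjusted p = 0.872).

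**Figure D5:**
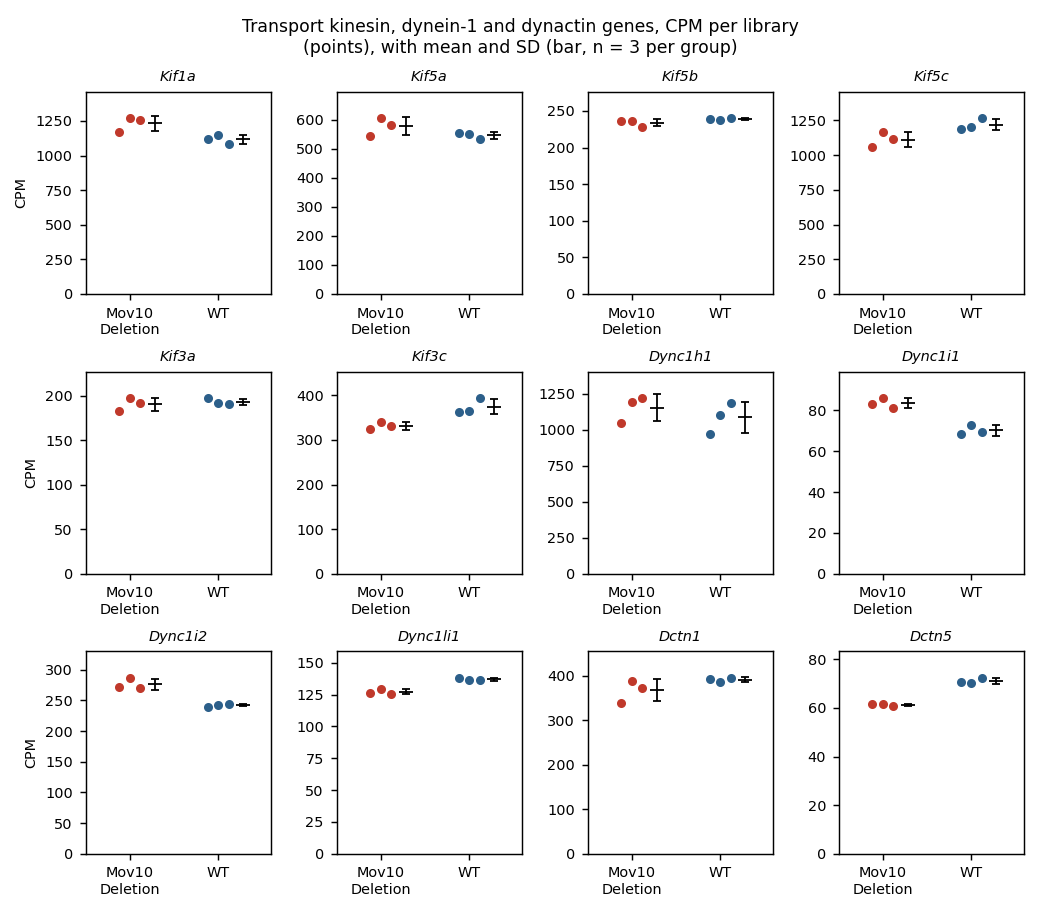
CPM (vertical axes, each from 0) of selected transport kinesin, dynein-1 and dynactin genes in the 3 *Mov10* Deletion and 3 WT libraries (points), with mean and SD (bars). *Dync1i1*, *Dync1i2* and *Kif1a* are higher and *Kif3c*, *Kif5b*, *Kif5c*, *Dync1li1* and *Dctn5* lower in all 3 *Mov10* Deletion libraries, with *Kif1a*, *Kif5b*, *Kif5c* and *Dync1li1* not past the test, while *Dync1h1* overlaps.

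Of the dynein light chains 13 of 15 genes were tested, of which 3 rose and none fell, beside 12.2% of all tested genes higher. Of the 3, *Dynlt4* entered the test through its *Mov10* Deletion libraries alone and *Dynlt2a2* did not pass when summed with its relatives. *Dynll1*, the hub light chain that many other proteins also bind, was the most abundant gene of all 74 per length, at 638 ± 29.6 TPM in *Mov10* Deletion libraries and 523 ± 79.0 TPM in WT libraries. Its counts gave 192, 183 and 170.4 CPM in *Mov10* Deletion libraries, against 172, 166 and 134 CPM in WT libraries, which overlapped (0.13, SE 0.045, adjusted p = 0.0628). Its close relative *Dynll2* had 367 ± 16.0 CPM in *Mov10* Deletion libraries and 367 ± 13.9 CPM in WT libraries (adjusted p = 0.793).

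*Dynlt1b*, a light chain of the Tctex family, had 87.2, 96.9 and 92.2 CPM in *Mov10* Deletion libraries, against 70.8, 88.5 and 89.2 CPM in WT libraries (0.22, SE 0.064, adjusted p = 0.0397). The groups overlapped, the adjusted p was 0.198 without the factors, and it passed in 8 of 18 other settings. The log2 fold change was 0.05 without WT replicate 1 (adjusted p = 0.459), while the adjusted p was 0.0621 without WT replicate 3. Its transcript shares 95.9% to 99.1% of its bases with those of *Dynlt1a*, *Dynlt1c* and *Dynlt1f*, so the share of reads given to each gene is uncertain. The 4 genes summed gave 157 ± 4.09 CPM in *Mov10* Deletion libraries and 143 ± 11.5 CPM in WT libraries (0.18, SE 0.047, adjusted p = 0.0324). WT library 1 was again the lowest, at 129.8 CPM, and the sum was not refitted without it.

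The 2 largest log2 fold changes belonged to light chains with few counts. *Dynlt2a2* had 1.29, 0.812 and 0.920 CPM in *Mov10* Deletion libraries, against 0.410, 0.461 and 0.659 CPM in WT libraries (1.06, SE 0.19, adjusted p = 0.00827). Summed with its relatives *Dynlt2a1* and *Dynlt2a3*, the value was 0.44 (SE 0.17, adjusted p = 0.0941) and no longer passed. Their most abundant transcripts, of 595 and 656 bases, matched that of *Dynlt2a2*, of 2253 bases, at 67.4% and 68.3% of the shorter. Transcripts of such unlike length do not tell how alike the genes are. How reads were shared out between these genes was not tested. *Dynlt2a3* had 0.160, 0.144 and 0.143 CPM in *Mov10* Deletion libraries, against 0.357, 0.585 and 0.131 CPM in WT libraries. *Dynlt4* had 42, 46 and 22 counts in *Mov10* Deletion libraries, against 15, 9 and 13 counts in WT libraries (1.43, SE 0.35, adjusted p = 0.0253). It was under 0.25 CPM in every WT library, so its call follows in part from the filter.

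In dynein-2, the motor that returns cargo from the tip of the cilium, 1 of 4 genes rose, beside 12.2% of all tested genes. *Dync2h1*, its heavy chain, had 57.1, 59.2 and 67.7 CPM in *Mov10* Deletion libraries, against 48.2, 52.4 and 48.2 CPM in WT libraries (0.31, SE 0.070, adjusted p = 0.0199), with no overlap. The call was lost with the sex score (adjusted p = 0.0744) and on log2(TPM + 0.1) (adjusted p = 0.0663). *Dync2i1*, *Dync2i2* and *Dync2li1* ran from -0.05 to 0.11.

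In dynactin all 6 log2 fold changes lay below 0, from -0.21 to -0.02, and 1 passed, beside 11.7% of all tested genes lower. *Dctn5*, a subunit of the pointed-end complex that caps the dynactin filament and helps bind cargo, had 61.6, 61.4 and 60.9 CPM in *Mov10* Deletion libraries, against 70.6, 70.3 and 72.4 CPM in WT libraries (-0.21, SE 0.037, adjusted p = 0.00859). It passed in all 18 other settings. *Dctn1*, the large subunit that binds dynein and the microtubule, had 340.3, 389 and 374 CPM in *Mov10* Deletion libraries, against 393, 385 and 396 CPM in WT libraries, with overlap (-0.08, SE 0.034, adjusted p = 0.109). *Dctn1* lies on chromosome 6, 1.99 Mb from *Emx1*, and no other gene of the set was within 5 Mb of *Emx1* or *Mov10*.

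Partners of the motors that the rule left out were read in the same fit. Of 8 partners of the mitotic kinesins, 5 of them also among the G2/M genes above, 7 fell, among them *Prc1* (-0.44), *Racgap1* (-0.46) and *Tpx2* (-0.49). Of 6 kinesins under other symbols *Cenpe* (-0.29) and *Kifc1* (-0.44), which both act in mitosis, fell and *Kifc2* (0.25) rose. Of 6 genes of the dynactin filament only *Capza1* fell (-0.21), and of the 3 LIS1 and NDE regulators of dynein only *Nde1* fell (-0.29). Among 20 tested cargo adaptors of dynein and kinesin *Bicdl1* and *Nin* rose and *Mapk8ip2* fell, or 15% against 23.8% of all tested genes. *Kifbp*, which binds and blocks several kinesins, fell (-0.24, adjusted p = 0.00875).

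Transcript usage, the share of a gene that each of its transcripts takes, was tested in 53 of the genes, of which 2 passed, beside 7.06% of all 10338 genes tested. In *Kif3c* the transcript *Kif3c-204* had 28.7, 0 and 0 CPM in *Mov10* Deletion libraries, against 32.2, 36.6 and 39.9 CPM in WT libraries (gene adjusted p = 0.0103, limma diffSplice). *Mov10* Deletion library 1 was like the WT libraries, and a 0 from Salmon can be a failed split between similar transcripts. In *Dync2h1* the transcript *Dync2h1-201* took 20.7%, 10.6% and 23.0% of the gene in *Mov10* Deletion libraries, against 4.60%, 7.84% and 0% in WT libraries (gene adjusted p = 3.77e-05). Neither passed without the factors, with adjusted p of 0.0581 for *Kif3c* and 0.121 for *Dync2h1*. The call of *Kif3c* was lost without *Mov10* Deletion replicate 2 or 3 and without WT replicate 2 or 3 (adjusted p 0.0917 to 0.207), and that of *Dync2h1* without *Mov10* Deletion replicate 1 and without WT replicate 2 or 3 (adjusted p 0.12 to 0.301).

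Of the 23 called genes 11 share exonic bases with a tested gene on the opposite strand (*Dctn5*, *Dync1h1*, *Dynlt2a2*, *Dynlt4*, *Kif18a*, *Kif20a*, *Kif22*, *Kif3c*, *Kif4*, *Kif9* and *Klc4*), and 0 with a tested gene on the same strand. The kit keeps strand, but the sources used here do not say whether the counting used it. The longest such overlaps were 2748 bases between *Kif20a* and *Cdc23* and 2617 bases between *Kif3c* and the noncoding gene *1110002L01Rik*. Replicates were pools of pups. The p-values of the main fit measure the spread between pools that was left after the 2 factors were taken out.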

How the data were processed

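Poly(A) RNA from P0 hippocampi (RNeasy, TruSeq Stranded mRNA, NovaSeq) was quantified by the authors with Salmon 1.4.0 against GRCm39 with the genome as decoy. The annotation release was not given in the sources used here. Deposited files hold estimated counts and TPM for 139225 transcripts each, of which 137570 matched the GENCODE vM39 annotation. Unmatched transcripts held 0.589% to 0.600% of the counts. Estimated counts were summed per gene, TMM-normalised and tested by limma-trend on log2 CPM (prior count 2) with genotype and 2 RUVs factors (written out in R, since the study's methods name RUVSeq but not the function), on genes reaching 0.25 CPM in 3 or more libraries. The fit left 2 residual degrees of freedom, moderated by a median prior of 5.77. Transcript usage was tested by diffSplice. R 4.3.3, limma 3.58.1, edgeR 4.0.16 and DESeq2 1.42.0 were used, with counts rounded for edgeR and DESeq2, and the fits were checked on simulated counts. TPM, which the authors scaled within each library, served for levels per length and for 1 alternative. The genes, classes and lists were chosen with earlier results of these data known. Genes named were those called, a fixed set of main subunits (*Dync1h1*, *Dctn1*, *Kif5a*, *Kif5b*, *Kif5c*, *Kif1a*, *Kif3a*, *Kif11*, *Kif2c*, *Kif23*, *Dynll1* and *Dynll2*), and those near *Mov10* or *Emx1* or called for transcript usage. Others named were chosen after their values were seen. Summing of related gene copies was added after seeing the data. Alternatives varied the factors, the test, the normalisation, the filter, length correction and the libraries. Marker lists whose values are not given above were those of astrocytes, microglia, oligodendrocyte precursors, choroid plexus and endothelium, given at the end.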

Additional observations from a re-analysis of the deposited data

How the results depend on the processing

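Of the 18 alternatives none reversed the direction of a called motor gene. *Kif2c*, *Kif22*, *Kif20a*, *Kif4*, *Kif18a*, *Kif11*, *Dctn5* and *Dync1i1* passed in all 18. Over the 23 called genes and 8 further main subunits, 481 pairs of a gene and an alternative kept their side of the threshold, 25 came past it and 46 were lost. With a sex score as the covariate 1364 genes were called in all, 14 of the motor genes and 0 transport kinesins. On log2(TPM + 0.1) 2460 genes were called in all, with 6 mitotic and 2 transport kinesins. Transport kinesins numbered 2 with 1 RUVs factor, 2 with upper-quartile normalisation, 2 at 1 CPM and 3 by DESeq2. Leaving out 1 library gave 2334 to 5899 genes in all (2334 without WT replicate 2), 18 to 33 motor genes, 9 to 10 mitotic kinesins and 0 to 5 transport kinesins. Usage calls were 0 without factors, 0 with the replicate block, 4 at 1 CPM and 0 to 5 with a library left out, 0 of them without WT replicate 2 or 3. Upper-quartile normalisation raised the share of higher calls to 60.9%, from 51.1%. Deviations of same-numbered libraries correlated at 0.01, -0.07 and 0.04, which gave no sign of pairing by number. With 3 libraries per group this check cannot exclude it. With the replicate block and no factors 3425 genes were called in all, 21 motor genes, 10 mitotic kinesins and 1 transport kinesin. The cause of these shifts was not tested.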

Other observations

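Markers of further cell types were read beside the motors. Of 5 astrocyte markers 2 rose and none fell, with sums of 877 to 948 CPM in *Mov10* Deletion libraries and 703 to 826 CPM in WT libraries. None of 6 microglial markers passed, with sums of 49.9 to 69.7 CPM in *Mov10* Deletion libraries and 53.0 to 67.9 CPM in WT libraries. In oligodendrocyte precursors (*Olig2*) and in endothelium (*Cldn5*) 1 of 5 markers each fell, and *Olig2* did not pass without the factors (adjusted p = 0.11, limma). The choroid plexus markers summed to 53.3, 2.99 and 7.25 CPM in *Mov10* Deletion libraries, against 17.96, 16.8 and 9.13 CPM in WT libraries, with *Mov10* Deletion library 1 the highest. Only *Ttr* of 5 was called lower, and only with the factors (adjusted p = 0.0123, against 0.619 without them, limma). It had 45.6, 0.786 and 3.75 CPM in *Mov10* Deletion libraries, against 13.4, 11.6 and 5.10 CPM in WT libraries, so the groups overlapped.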
